A study of Mus musculus with 35 samples.

Results

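Prnp, which encodes the prion protein, and 6 genes of chromosome 3 between 140 and 142.5 Mb were described in the hippocampus of mice with and without the PS19 tau transgene. The deposited tables hold 32285 genes. Of the 7, Prnp was chosen because its promoter drives the transgene. The 3 noncoding genes Gm43049, Gm32754 and 4930590L14Rik were chosen because they had reads almost only in PS19 libraries. Unc5c, Bmpr1b and Pdlim5 were chosen as coding genes near these 3, all on the side of higher coordinates. The difference between libraries with and without the transgene was therefore used to choose them, and for the 7 genes it is given below as a description, without a test.

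All mice were of the C57BL/6 strain. Nuclei of frozen hippocampus were sequenced at 9 months in 4 groups: 3 wild-type (WT) mice, 3 PS19 mice, 4 CLEAR mutants without the transgene and 4 CLEAR mutants crossed with PS19 (CLEAR PS19), with 1 female library in each group. Bulk RNA of hippocampus was sequenced at 4 months (6 WT and 6 PS19) and at 9 months (5 WT and 4 PS19, replicates 1, 3, 4 and 5, replicate 2 not analysed here), and the labels give no sex for it. PS19 mice carry a mutant human tau cDNA under the mouse prion promoter, and they are a single transgenic line, so all PS19 libraries share its insertion, whose site was not analysed here. CLEAR names the DNA element bound by the transcription factor TFEB, and the labels give the mutant no further description. Nothing in the labels says whether a replicate is a separate animal, so p-values measure the spread between these libraries.

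The prion protein is a glycoprotein held at the cell surface by a lipid anchor, abundant in neurons and also made by glia. Its promoter is widely used to drive transgenes in the brain, and where such a transgene lands can bring nearby genes under its influence or interrupt them. Unc5c is a receptor of the guidance cue netrin-1, Bmpr1b a type I receptor of bone morphogenetic proteins (BMPs) and Pdlim5 a scaffold with a PDZ and several LIM domains. The 3 noncoding genes are known here by their annotation alone.

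In the GENCODE M21 annotation of GRCm38, Prnp lies on chromosome 2 from 131909928 to 131938429 on the forward strand, spans 28.5 kb and shares its region with the annotated readthrough gene Prn. On chromosome 3, Gm43049 (140692038 to 140760704, reverse strand, 68.7 kb), Gm32754 (140904998 to 140917459, reverse strand, 12.5 kb) and 4930590L14Rik (140951876 to 140953247, forward strand, 1372 bases) are annotated as long intergenic noncoding RNAs. Unc5c (141465216 to 141834924, forward strand) begins 513 kb after the start of 4930590L14Rik, Bmpr1b (141837136 to 142169425, reverse strand) 885 kb after it and Pdlim5 (142239590 to 142395696, reverse strand) 1288 kb after it. The coding gene Pdha2 lies between 4930590L14Rik and Unc5c, with 0 UMIs in nuclei without the transgene and 1 with it. On the other side, the nearest coding gene detected in nuclei was Stpg2 (139205694 to 139710299). It had 2578 UMIs without the transgene and 2317 with it, and is not among the members. Unc5c overlaps 2 genes on the other strand, Gm15688 and Gm15689, and Gm43826 on its own strand. The sources used here do not give strand counting for most tables, so reads from shared stretches may be assigned to the wrong gene there. In nuclei Gm15688 and Gm15689 had counts of their own, 1084 and 2841 UMIs without the transgene and 979 and 2140 with it. Unc5c had 358078 and 277162.

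The 250 bases before the start in RefSeq's annotation are shown for Prnp, whose promoter sequence is the one the transgene uses, and for the 2 noncoding genes that have a RefSeq entry, because these 3 genes were higher together in transgenic libraries. The sequences are those of RefSeq for GRCm38.p6 and run 5′ to 3′ on the strand of the gene: chr2:131909678-131909927 (forward) for Prnp, chr3:140951585-140951834 (forward) for 4930590L14Rik and chr3:140917319-140917568 (reverse) for Gm32754. The RefSeq starts differ from the GENCODE ones for both noncoding genes: the window of Gm32754 runs across its GENCODE start at 140917459, and that of 4930590L14Rik ends before its GENCODE start at 140951876. Distances below are from the RefSeq starts. Capitals mark matches on either strand to the GC box GGGCGG, to the box CCAAT and to the TATA box, searched as TATAAA.
Prnp: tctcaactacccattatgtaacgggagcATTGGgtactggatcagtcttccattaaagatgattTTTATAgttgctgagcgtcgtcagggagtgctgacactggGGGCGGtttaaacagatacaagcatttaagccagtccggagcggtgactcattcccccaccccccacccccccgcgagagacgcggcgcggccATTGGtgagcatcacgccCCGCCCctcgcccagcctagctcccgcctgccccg
4930590L14Rik: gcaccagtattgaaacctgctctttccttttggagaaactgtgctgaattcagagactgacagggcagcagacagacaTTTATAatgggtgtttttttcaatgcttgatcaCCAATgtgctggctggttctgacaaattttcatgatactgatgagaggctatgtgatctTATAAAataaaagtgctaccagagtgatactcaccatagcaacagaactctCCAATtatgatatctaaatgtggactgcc
Gm32754: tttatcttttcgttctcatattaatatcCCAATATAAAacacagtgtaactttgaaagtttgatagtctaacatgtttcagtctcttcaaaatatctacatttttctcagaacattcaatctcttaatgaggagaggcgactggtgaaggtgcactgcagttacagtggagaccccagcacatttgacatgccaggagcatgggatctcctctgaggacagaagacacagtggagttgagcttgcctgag
Prnp had 2 GC boxes, 146 bases before the start on its own strand and 35 bases before it on the other, 2 CCAAT boxes on the other strand at 222 and 53 bases, and 1 TATA match on the other strand at 186 bases. 4930590L14Rik had CCAAT boxes at 139 and 29 bases on its own strand and TATA matches at 80 bases on its own strand and 172 on the other. Gm32754 had 1 CCAAT box at 222 bases and 1 TATA match at 218 bases, which overlap. Of 32851 promoter windows of the same length, 32.7% held a GC box, 33.9% a CCAAT box and 12.4% a TATA match. GC content was 58.8% for Prnp, 40.0% for 4930590L14Rik and 40.8% for Gm32754, beside a median of 52.4% over all promoters. The matches describe letters only, and no GC box in the windows of the 2 noncoding genes says nothing about the factors that act there.

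Bulk libraries held 9.63 to 17.18 M counted reads, and the 14 nuclei libraries 40.01 to 83.61 M UMIs (molecules counted once) in 132322 kept nuclei, with a median of 3121 to 8175 UMIs per nucleus. Levels are in CPM, counts scaled to the library total after its TMM correction, and nuclei of a library were summed before any fit. Pairs of nuclei libraries shared 10 to 70 barcodes, at most 0.629% of the smaller library. In granule neurons the nuclei libraries fell into 3 sets: WT 1 and 2, PS19 1 and 2, CLEAR 3 and CLEAR PS19 3 formed the first, the 4 female libraries the second, and CLEAR 1 and 2 with CLEAR PS19 1 and 2 the third. The sets were the same in other excitatory neurons. There sex and the second set hold the same libraries and cannot be told apart, while in oligodendrocytes and microglia female libraries grouped with male ones. No marker of the cell classes named below was at 0 over a whole bulk group, and the summed level of choroid plexus and ependymal markers in bulk ranged from 63.1 to 6147 CPM between libraries of 4 months.

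Prnp was more than 2 times as high in bulk tissue with the transgene at both ages. At 9 months the 5 WT libraries had 910, 935, 891, 982 and 891 CPM (mean 922 ± 38.2, SD), and the 4 PS19 libraries had 2052, 1981, 2282 and 2184 CPM (mean 2125 ± 134). Every PS19 library was above every WT library by a wide margin, with a log2 difference of 1.21 (SE 0.06). At 4 months WT libraries ran from 848 over a median of 919 to 973 CPM and PS19 libraries from 1954 over 2159 to 2279 CPM, with a log2 difference of 1.22 (SE 0.05). The groups did not overlap at that age either, and the 2 ages gave almost the same size. Whether any reads of the transgene were counted as Prnp, in bulk or in nuclei, is not given in the sources used here. Levels of Prnp in transgenic libraries are therefore counts assigned to it, and need not all come from the mouse's own gene.

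4930590L14Rik was all but silent without the transgene. The 5 WT libraries of 9 months held 1 read in all, and the 6 of 4 months also 1. PS19 libraries of 9 months held 13, 19, 16 and 14 reads, or 1.06 to 1.48 CPM, and those of 4 months 12 to 24 reads, or 1.25 to 1.77 CPM. The ratio of pooled reads was 88.0 at 9 months (95% interval 15.2 to 3531, exact binomial) and 122 at 4 months (21.5 to 4871), where the intervals cover counting error only. No WT library came near any PS19 library at either age.

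Gm32754 and Gm43049 were scarcely seen in bulk. Gm32754 had 13, 0, 0 and 5 reads in the PS19 libraries of 9 months against 2 reads in 1 of 5 WT libraries, and the groups overlapped. At 4 months it had 1 to 17 reads in the 6 PS19 libraries and 0 in all WT libraries, at least 13.5 times as much against a floor of 3 reads over the group. Gm43049 reached 5 reads in all 10 PS19 libraries together and 0 in the 11 WT libraries, which is too few to compare.

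In nuclei all 3 noncoding genes were seen in every transgenic library. Gm43049 had 96.2, 65.3 and 129.6 CPM in the PS19 libraries and 102, 99.2, 72.6 and 134.5 CPM in the CLEAR PS19 libraries, and at most 0.142 CPM in any library without the transgene. The pooled ratio was 4898 on the WT background (1913 to 17979) and 1370 on the CLEAR background (866 to 2311). In counts, 45137 UMIs came from the 7 transgenic libraries and 22 from the 7 others.

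Gm32754 had 10.2, 7.24 and 22.6 CPM in PS19 nuclei and 12.7, 10.4, 7.31 and 23.7 CPM in CLEAR PS19 nuclei, and at most 0.0341 CPM elsewhere. 4930590L14Rik had 1.37, 0.756 and 1.14 CPM in PS19 nuclei and 1.83, 2.30, 0.978 and 1.44 CPM in CLEAR PS19 nuclei. It had 0 UMIs in all 7 libraries without the transgene, so its level was at least 76.1 times higher on the WT background and at least 140 times higher on the CLEAR background, against the floor of 3 UMIs over the group. For each of the 3 genes, the 7 transgenic libraries lay apart from the other 7.

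The log2 difference of Prnp was smaller in nuclei than in bulk, a gap that was not tested. WT libraries had 59.5, 66.8 and 56.3 CPM and PS19 libraries 103, 110 and 91.8 CPM, a log2 difference of 0.74 (SE 0.17). CLEAR libraries had 78.8, 81.7, 62.1 and 66.0 CPM and CLEAR PS19 libraries 172, 180, 121 and 91.5 CPM, a log2 difference of 0.95 (SE 0.15). The groups did not overlap on either background, and within the 3 library sets the log2 difference was 0.83, 0.59 and 1.13.

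**Figure D1:**
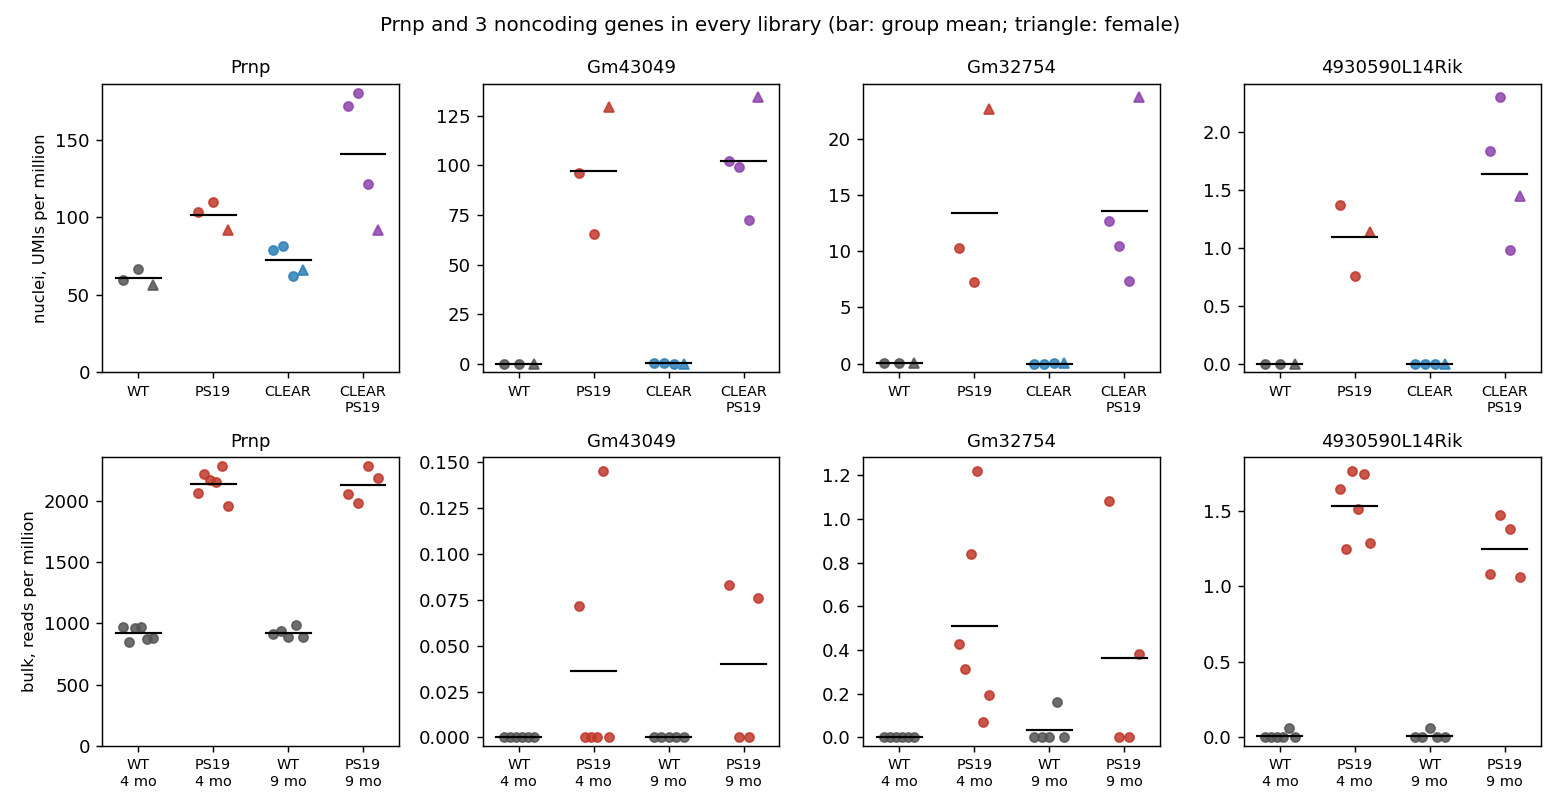
Level of Prnp, Gm43049, Gm32754 and 4930590L14Rik in every nuclei library (top) and bulk library (bottom), in CPM. Points are libraries, triangles are females and bars are group means. The 3 noncoding genes sit at or near 0 without the transgene, and the 2 transgenic female nuclei libraries have the highest Gm32754, at 22.6 and 23.7 CPM.

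Of 33 genes detected in nuclei in the few Mb of chromosome 3 around them, these 3 alone had at least 100 UMIs in transgenic libraries and more than 10 times the number in the others. The next gene by this ratio with at least 100 UMIs was the interferon-induced GTPase gene Gbp2b, far short of the mark, with 126 UMIs with the transgene and 31 without. Over all 7 genes, 5 of 7 were called by edgeR (adjusted p under 0.05 over all genes) on the WT background, where 6.1% of all genes were, and 4 of 7 on the CLEAR background, where 0.0543% were. In bulk, 4 of 5 tested members were called at 9 months beside 12.8% of all genes, and 2 of 5 at 4 months beside 0.0186%. Because this contrast chose the genes, nothing is read from these counts.

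Levels of different genes were compared per length. Per kb of exon in bulk PS19 libraries, 4930590L14Rik had 1.70 ± 0.303 CPM, Gm32754 0.615 ± 0.604 and Gm43049 0.0402 ± 0.0561 (SD, n = 10), beside 911 for Prnp. Per kb of gene span in transgenic nuclei, Gm43049 had 1.46 ± 0.378 CPM, Gm32754 1.08 ± 0.553 and 4930590L14Rik 1.02 ± 0.383 (SD, n = 7), beside 4.36 for Prnp and 1.63 for Unc5c. Per kb of span in nuclei the ranges of the 3 noncoding genes over libraries overlapped. Nuclei were counted from the 3' end of transcripts, where counts need not grow with length, and whether intronic reads were counted is not given in the sources used here.

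Nuclei were sorted into classes by fixed markers, and a class name below stands for clusters that are like that cell type by those markers. In some classes different clusters held most nuclei in different groups. Cluster 7 held 90.8% of the microglia in WT, 91.3% in CLEAR and 65.2% in CLEAR PS19, and cluster 10 held 87.5% of those in PS19. The fullest cluster of oligodendrocytes was 1 in WT and CLEAR, 6 in PS19 and 2 in CLEAR PS19. For inhibitory neurons it was 18 in PS19 and 17 in the other groups, and for vascular cells 28 in WT and 26 in the other groups.

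By class, Gm43049 and Gm32754 were highest in neurons and oligodendrocyte precursors. In transgenic libraries Gm43049 averaged 129 CPM in other excitatory neurons (those outside the dentate granule layer), 107 in inhibitory neurons, 88.0 in oligodendrocyte precursors, 85.3 in granule neurons and 72.6 in Cajal-Retzius neurons. It averaged 28.4 CPM in vascular cells, 18.2 in oligodendrocytes, 10.9 in astrocytes and 1.15 in microglia, where 10 UMIs were counted in all. Other excitatory neurons alone held 54.9% of its UMIs, granule neurons 17.9% and inhibitory neurons 11.7%. Free RNA from broken cells gives UMIs in nuclei that do not express a gene, so low levels were set beside Slc17a7, the glutamate transporter gene of excitatory neurons. In the pooled transgenic libraries, oligodendrocytes had 14.7% of the level of Gm43049 in other excitatory neurons, astrocytes 8.97% and microglia 0.609%, where Slc17a7 had 10.54%, 5.73% and 10.0%. Over all 8 markers of other excitatory neurons, the median was 10.9% in oligodendrocytes, with 3 of 8 at or above the share of Gm43049, 9.13% in astrocytes, with 4 of 8, and 10.2% in microglia, with 8 of 8. The level of Gm43049 in microglia is therefore not read as expression. In astrocytes it lay above Slc17a7, while 4 of 8 markers were at or above it and the highest was at 273.7%. The part of free RNA there was not tested. All 7 transgenic libraries had 14.98 to 27.7 CPM in oligodendrocytes and at most 2.74 CPM in microglia, and the part of free RNA in oligodendrocytes was not tested further. In vascular cells Gm43049 had 14.5% and Slc17a7 26.0%, and by that share alone it is not read as expressed there. Per UMI of Slc17a7, microglia had 0.0332 UMIs of Gm43049, vascular cells 0.304, oligodendrocytes 0.759, astrocytes 0.854 and other excitatory neurons 0.546. These ratios are a description, and the part of free RNA in vascular cells was not tested. In oligodendrocyte precursors and inhibitory neurons Gm43049 had 65.4% and 81.9%, far above the 6.58% and 3.07% of Slc17a7.

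Gm32754 followed much the same order, with 18.7 CPM in other excitatory neurons, 13.9 in inhibitory neurons, 9.34 in granule neurons, 6.42 in Cajal-Retzius neurons and 5.92 in oligodendrocyte precursors. It was 3.59 CPM in vascular cells, 2.53 in astrocytes, 1.17 in oligodendrocytes and 0.971 in microglia. In astrocytes, oligodendrocytes and microglia of the pooled libraries this was 12.75%, 6.07% and 4.44% of the level in other excitatory neurons, from 8, 48 and 10 UMIs. Those of oligodendrocytes and microglia lie below the shares of Slc17a7 and are not read as expression. Across the 9 classes its mean level went with that of Gm43049 (r = 0.93, Spearman's rho 0.93), a description over classes that share the same libraries. The 9 include classes whose levels are not read as expression. For Gm32754, Cajal-Retzius neurons and vascular cells rest on 7 and 9 UMIs, each in 4 of 7 libraries, so their place in the order is uncertain. 4930590L14Rik had 1.83 ± 0.480 CPM in other excitatory neurons, 1.18 ± 0.567 in inhibitory neurons and 1.08 ± 0.542 in granule neurons (SD, n = 7), and at most 11 UMIs in any other named class. With so few UMIs its levels there cannot be ranked, as in vascular cells, where 3 UMIs gave a mean of 3.54 CPM. Of the 668 UMIs of 4930590L14Rik, 55.8% came from other excitatory neurons, 17.2% from granule neurons and 9.58% from inhibitory neurons, and 0 came from microglia.

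Prnp had a different order. Without the transgene it was highest in astrocytes (266 ± 52.7 CPM, SD, n = 7) and oligodendrocytes (146.7 ± 27.3), which did not overlap, as the lowest astrocyte value was 216 CPM and the highest in oligodendrocytes 196. Vascular cells (93.5 ± 24.8) and Cajal-Retzius neurons (90.7 ± 35.8) followed and did not differ beyond their spread. Other excitatory neurons (60.8 ± 7.74), oligodendrocyte precursors (55.0 ± 7.45), granule neurons (52.7 ± 8.61) and microglia (45.4 ± 11.1) each lay within 1 SD of the next. Inhibitory neurons were lowest (35.6 ± 4.85), within 1 SD of the microglial value by the larger SD.

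With the transgene, astrocytes and oligodendrocytes still had the highest mean levels of Prnp, and neurons and oligodendrocyte precursors had higher means than without it. Granule neurons had 125 ± 32.6 CPM, other excitatory neurons 122 ± 31.1, oligodendrocyte precursors 108 ± 27.3 and inhibitory neurons 78.2 ± 19.5. Cajal-Retzius neurons had 169 ± 54.8 CPM, oligodendrocytes 206 ± 72.7, vascular cells 136.9 ± 72.7 and microglia 66.1 ± 24.1. Astrocytes had 279 ± 101 CPM, and their range of 202 to 440 CPM overlapped that of 216 to 345 CPM without the transgene.

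The log2 difference of Prnp was 1.27 (SE 0.17) on the WT background and 1.19 (SE 0.14) on the CLEAR background in granule neurons, and 1.07 (SE 0.13) and 1.17 (SE 0.11) in inhibitory neurons. It was 0.86 (SE 0.15) and 1.08 (SE 0.13) in other excitatory neurons, and 0.80 (SE 0.18) and 1.08 (SE 0.16) in oligodendrocyte precursors. In these 4 classes transgenic and other libraries did not overlap on either background. Oligodendrocytes had 0.38 (SE 0.22) and 0.53 (SE 0.19), microglia 0.25 (SE 0.31) and 0.69 (SE 0.27), vascular cells 0.29 (SE 0.34) and 0.62 (SE 0.31), and astrocytes -0.04 (SE 0.22) and 0.11 (SE 0.19). Cajal-Retzius neurons had 1.24 (SE 0.31) and 0.67 (SE 0.27). Whether these differences themselves differ between classes was not tested.

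In granule neurons, as the plainest case, WT libraries had 45.4, 48.6 and 42.7 CPM of Prnp and PS19 libraries 111, 133 and 90.4. CLEAR libraries had 62.7, 65.5, 49.7 and 54.3 CPM and CLEAR PS19 libraries 160, 170, 124 and 84.2. The female PS19 and female CLEAR PS19 libraries were the lowest of their groups and still above every library without the transgene.

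Across the 9 classes, the level of Gm43049 went with the ratio of Prnp with and without the transgene (r = 0.86, rho = 0.83), less with the difference in CPM (r = 0.59, rho = 0.47), and ran against the level of Prnp without the transgene (r = -0.55, rho = -0.40). These are descriptions over 9 classes from the same libraries. The low levels of Gm43049 in microglia and vascular cells are not read as expression, and those in astrocytes and oligodendrocytes may hold free RNA. The rarer classes rest on few counts: the astrocytes of all 7 transgenic libraries together held 940 Prnp UMIs, their vascular cells 234 and their Cajal-Retzius neurons 223.

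**Figure D2:**
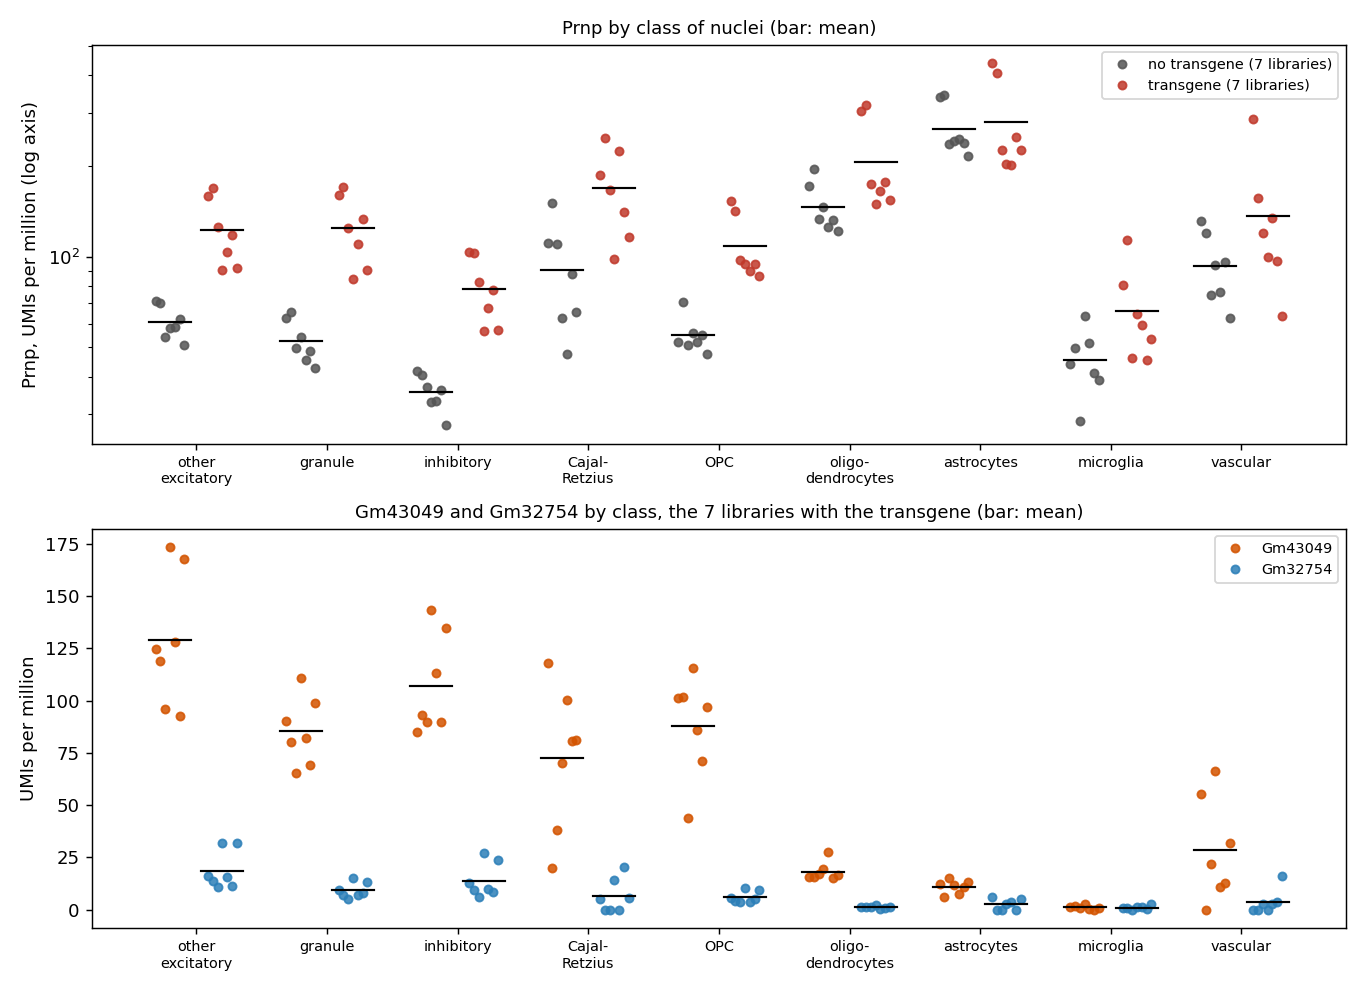
Top: Prnp by class of nuclei, in CPM on a log axis, with 7 libraries without (grey) and 7 with (red) the transgene. Bottom: Gm43049 (orange) and Gm32754 (blue) by class in the 7 transgenic libraries on a linear axis. Points are libraries and bars means. The Prnp points are apart in granule and inhibitory neurons and overlap in astrocytes, where Gm43049 averages 10.9 CPM.

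Within the transgenic libraries, no relation of a member with Prnp passed the threshold after adjustment. Agreement was measured on log2 CPM over the 7 transgenic nuclei libraries and the 10 bulk PS19 libraries, 11 relations in all, with permutation p-values (exact for the 7). Gm43049 gave r = -0.24 (exact permutation p = 0.61, rho = -0.43, p = 0.35) and Gm32754 r = -0.40 (exact permutation p = 0.36, rho = -0.43, p = 0.35). 4930590L14Rik gave r = 0.62 (exact permutation p = 0.14, rho = 0.36, p = 0.44) in nuclei and r = 0.21 in bulk (permutation p = 0.54, rho = 0.19, p = 0.60).

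The relations in nuclei rested on a few libraries. Without CLEAR PS19 1 and 2, which were farthest from the median of Prnp, r became -0.92 for Gm43049 (exact permutation p = 0.058), -0.94 for Gm32754 (exact permutation p = 0.042) and -0.64 for 4930590L14Rik (exact permutation p = 0.23). With the 2 female libraries left out instead, 5 libraries remained and r was 0.60 for Gm43049 and 0.63 for Gm32754. In bulk, Gm32754 gave r = -0.05 (permutation p = 0.89, rho = -0.18, p = 0.63) and, without the 2 farthest libraries, -0.76 (permutation p = 0.028).

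Of the coding neighbours, Unc5c gave the strongest relation in nuclei, with r = -0.86 (exact permutation p = 0.013, adjusted 0.14) and rho = -0.93 (exact permutation p = 0.0067, adjusted 0.074), and r = -0.69 (exact permutation p = 0.17) without the 2 farthest libraries. In bulk it had the opposite sign, r = 0.46 (permutation p = 0.17, rho = 0.56, p = 0.096). Bmpr1b gave r = -0.57 in nuclei (exact permutation p = 0.20, rho = -0.39, p = 0.40) and 0.43 in bulk (permutation p = 0.21, rho = 0.25, p = 0.49). Pdlim5 gave r = -0.20 in nuclei (exact permutation p = 0.68, rho = 0.14, p = 0.78) and 0.06 in bulk (permutation p = 0.87, rho = 0.02, p = 0.97). Without the 2 farthest libraries Bmpr1b had r = 0.38 and Pdlim5 r = 0.65 in nuclei, and in bulk r was 0.78 for Unc5c, 0.20 for Bmpr1b, 0.05 for Pdlim5 and 0.21 for 4930590L14Rik.

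**Figure D3:**
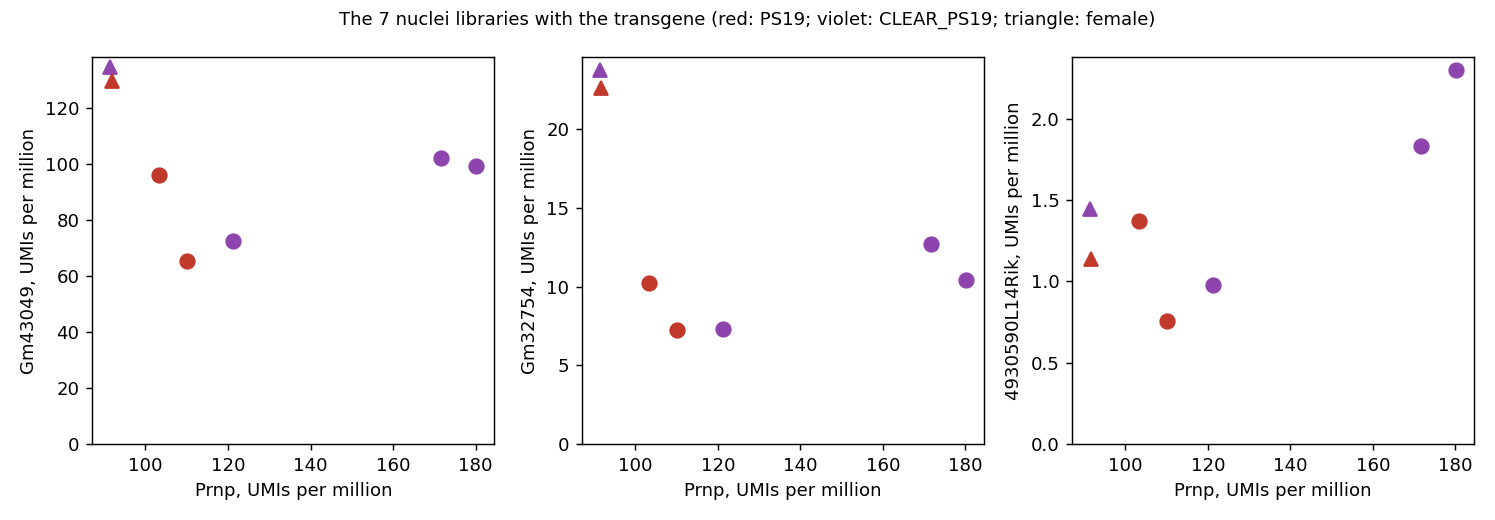
Each noncoding gene against Prnp in the 7 transgenic nuclei libraries, both in CPM (red PS19, violet CLEAR PS19, triangles female). The 2 female libraries have the lowest Prnp, 91.5 and 91.8 CPM, and the highest Gm43049 and Gm32754.

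The female libraries stood apart in a way that differed between the genes. Gm32754 had 22.6 and 23.7 CPM in the 2 transgenic females and 7.24 to 12.7 CPM in the 5 transgenic males. In the fit of all 14 libraries, the sex terms of Gm32754 and Gm43049 rest on these 2 females and 5 males. The libraries without the transgene held 6 and 22 UMIs of these genes. For Gm32754 the term was 1.29 (log2, female minus male, SE 0.19, edgeR adjusted p = 3.9e-04), in a comparison where 24.2% of all genes were called. Gm43049 had 129.6 and 134.5 CPM in females and 65.3 to 102 CPM in males (0.53, SE 0.22, edgeR adjusted p = 0.098). Prnp had the opposite sign, with 91.5 and 91.8 CPM in females and 103 to 180 CPM in males (-0.33, SE 0.13, edgeR adjusted p = 0.071), and 4930590L14Rik had -0.08 (SE 0.39, edgeR adjusted p = 0.90). The share of genes called is large. Sex and library set cannot be told apart in granule and other excitatory neurons, while in oligodendrocytes and microglia female libraries grouped with male ones.

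The pattern was present inside the neuronal classes, where the terms of Gm32754 and Gm43049 again rest on the transgenic libraries alone. In inhibitory neurons Gm32754 rose in females by 1.42 (log2, SE 0.24, edgeR adjusted p = 0.0012) and Gm43049 by 0.53 (SE 0.16, adjusted p = 0.029), while Prnp fell by 0.43 (SE 0.10, adjusted p = 0.0050), where 18.6% of all genes were called. In other excitatory neurons Gm32754 rose by 1.23 (SE 0.18, edgeR adjusted p = 0.0013) and Gm43049 by 0.57 (SE 0.19, adjusted p = 0.045), and Prnp fell by 0.36 (SE 0.11, adjusted p = 0.027), where 25.5% were called. In granule neurons Gm32754 rose by 1.00 (SE 0.23, edgeR adjusted p = 0.0077) and Prnp fell by 0.38 (SE 0.12, adjusted p = 0.041), where 21.3% were called, and Gm43049 had 0.42 (SE 0.15, adjusted p = 0.057). With the replicate number as a block, Prnp summed over nuclei had 0.27 in place of -0.33.

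No change with age within PS19 libraries was called for Prnp or 4930590L14Rik. The PS19 difference at 9 months minus that at 4 months, given as a description, was -0.02 for Prnp (log2, 95% interval -0.17 to 0.13) and -0.40 for 4930590L14Rik (-2.98 to 2.18). Within PS19 libraries, 9 months minus 4 months was -0.01 for Prnp (SE 0.06, edgeR adjusted p = 0.93) and -0.30 for 4930590L14Rik (SE 0.26, adjusted p = 0.47), where 17.3% of all genes were called.

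The CLEAR mutation made no called difference to any of the 7 genes in transgenic nuclei, where edgeR called 0.0136% of all genes. Prnp had the lowest unadjusted p, with 102 ± 9.24 CPM in PS19 and 141 ± 42.1 CPM in CLEAR PS19 (log2 0.42, SE 0.16, unadjusted p = 0.019, edgeR adjusted p = 0.27), and the groups overlapped. CLEAR PS19 1 and 2, the highest of their group at up to 180 CPM, lie in the third library set, which holds no PS19 library. For these 2 the mutation and the set cannot be told apart. Gm43049 had 0.13 (95% interval -0.28 to 0.55), Gm32754 0.17 (-0.19 to 0.53) and 4930590L14Rik 0.58 (-0.11 to 1.27). Prnp was the single member of 7 with an unadjusted p under 0.05, and DESeq2 also called none. The effect of the transgene on Prnp on the CLEAR background minus that on the WT background, also a description, was 0.21 (-0.23 to 0.64).

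Of the coding neighbours, Unc5c was lower with the transgene in most settings. In bulk at 9 months WT libraries had 80.1, 84.3, 84.2, 80.5 and 101 CPM and PS19 libraries 59.5, 63.6, 72.9 and 77.5 CPM, a log2 difference of -0.33 (SE 0.11) without overlap. At 4 months PS19 libraries ran from 55.5 to 81.1 CPM and WT libraries from 64.9 to 91.0 CPM and overlapped, with a log2 difference of -0.21 (SE 0.10). In nuclei WT libraries had 894, 906 and 729 CPM against 642, 605 and 608 CPM in PS19 (-0.45, SE 0.16), and on the CLEAR background the groups overlapped (-0.30, SE 0.14).

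Inhibitory neurons, where Unc5c had its highest mean without the transgene, had a wider gap than any other class except microglia, which had few UMIs and large errors. WT libraries had 1677, 1652 and 1497 CPM and PS19 libraries 809, 737 and 769 CPM (log2 -1.06, SE 0.17). CLEAR libraries had 938.5, 1097, 1649 and 1451 CPM and CLEAR PS19 libraries 624, 663, 743 and 764 CPM (-0.88, SE 0.15). All 7 transgenic libraries were below all 7 others. In granule neurons the log2 difference was -0.48 (SE 0.15) and -0.44 (SE 0.13), in other excitatory neurons -0.58 (SE 0.19) and -0.29 (SE 0.17).

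In oligodendrocyte precursors, which have as much Unc5c as inhibitory neurons within their spread (1256.5 ± 207 and 1423 ± 293 CPM without the transgene), the log2 difference was -0.15 (SE 0.16) and -0.04 (SE 0.14). In oligodendrocytes (1324 ± 275 CPM) it was -0.15 (SE 0.21) and -0.13 (SE 0.18). All 4 values are within 1 SE of 0. Microglia had -1.43 (SE 0.75) and -1.30 (SE 0.68) at a low level of 6.57 to 118 CPM, and without WT replicate 1 the first was 0.05. Most microglia were in cluster 7 in WT and in cluster 10 in PS19. Cluster 10 held 7.86% of them in CLEAR and 34.75% in CLEAR PS19.

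Bmpr1b differed in opposite directions in nuclei and in bulk. Summed nuclei had 15.02, 43.8 and 28.6 CPM in WT and 7.98, 12.6 and 10.6 CPM in PS19 (log2 -1.49, SE 0.35), and 17.2, 15.8, 31.5 and 23.2 CPM in CLEAR against 7.07, 7.81, 10.8 and 9.13 CPM in CLEAR PS19 (-1.33, SE 0.31). Neither background overlapped. Astrocytes, the class with by far the most Bmpr1b (677 ± 86.9 CPM without the transgene), had 739 ± 23.3 and 679 ± 55.9 CPM in WT and PS19 and 631 ± 90.0 and 579 ± 72.6 CPM in CLEAR and CLEAR PS19, with a log2 difference of -0.12 on both (SE 0.16 and 0.14).

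Beside this, the share of astrocytes among kept nuclei was 1.82 ± 0.637% in PS19 against 5.995 ± 2.93% in WT, and 1.39 ± 0.620% in CLEAR PS19 against 4.82 ± 1.16% in CLEAR (SD). The share of astrocytes thus moved with the summed level, and its part in the result was not tested. In other excitatory neurons Bmpr1b had 9.89 ± 1.75 CPM in WT and 4.80 ± 1.14 in PS19 (-1.06, SE 0.19), and 9.41 ± 1.69 CPM in CLEAR and 5.22 ± 0.776 in CLEAR PS19 (-0.85, SE 0.16). For comparison, granule neurons averaged 0.616 CPM of Bmpr1b without and 0.453 with the transgene, and oligodendrocytes 0.788 and 0.824. In oligodendrocyte precursors the 3 WT libraries held 0, 7 and 0 UMIs and the 3 PS19 libraries 24, 31 and 10. The 4 CLEAR libraries held 5, 0, 3 and 2 UMIs and the 4 CLEAR PS19 libraries 3, 14, 38 and 1. The PS19 libraries there were all above WT, and the CLEAR groups overlapped. The make-up of oligodendrocyte precursors and of other excitatory neurons by cluster, given above, differed between the same groups. Its part in these values was not tested.

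In bulk at 9 months Bmpr1b had 28.5, 27.7, 24.3, 28.0 and 21.8 CPM in WT and 32.6, 28.7, 38.4 and 31.4 CPM in PS19 (log2 0.33, SE 0.09), with no overlap but a gap of less than 1 SD. Astrocyte markers rose in the same libraries: 5 of 8 were called higher by edgeR, and their summed level ran from 9251 to 10675 CPM in PS19 and from 6066 to 7033 CPM in WT, with none of the 8 at 0. Their part in the bulk result was not tested, and in bulk fewer cells of a type and less RNA per cell cannot be told apart. At 4 months, when no astrocyte marker was called, Bmpr1b had 26.1 to 29.4 CPM in PS19 and 25.6 to 32.2 CPM in WT (-0.05, SE 0.08).

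Pdlim5 was higher in bulk at 9 months, with 59.7, 54.3, 67.0 and 67.9 CPM in PS19 against 48.3, 49.5, 44.8, 46.5 and 49.3 CPM in WT (log2 0.38, SE 0.09), and had a log2 difference of 0.00 (SE 0.08) at 4 months. In summed nuclei the log2 difference was -0.32 (SE 0.17) with overlap on the WT background and -0.40 (SE 0.15) without overlap on the CLEAR background. Microglia had 139 ± 16.8 CPM in WT and 84.9 ± 14.6 in PS19 (-0.74, SE 0.16), and 154 ± 11.9 CPM in CLEAR and 106 ± 22.6 in CLEAR PS19 (-0.56, SE 0.14). On the WT background these are values of different clusters, as most microglia were in cluster 7 in WT and in cluster 10 in PS19. The make-up also differed on the CLEAR background, where cluster 10 held 7.86% of microglia in CLEAR and 34.75% in CLEAR PS19. In granule neurons the log2 difference of Pdlim5 was -0.61 (SE 0.17) and -0.51 (SE 0.15), and in oligodendrocytes -0.11 (SE 0.15) and -0.12 (SE 0.13). Microglial nuclei were 4.19 ± 0.471% of the total in WT and 11.4 ± 3.32% in PS19, and all 8 microglial markers were called higher in bulk at 9 months by edgeR, with a summed level of 729 to 917 CPM in PS19 and 324 to 368 CPM in WT. Their part was not tested.

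The change with age within one genotype did not choose these genes and was tested. Pdlim5 rose from 4 to 9 months in PS19 libraries by 0.43 (log2, SE 0.09, edgeR adjusted p = 0.0014), without overlap between the ages, and had 0.04 (SE 0.08, adjusted p = 0.90) in WT. In PS19 Bmpr1b had 0.23 (SE 0.08, edgeR adjusted p = 0.070) and Unc5c 0.03 (SE 0.11, adjusted p = 0.90). Pdlim5 was thus 1 of 5 tested members called, beside 17.3% of all genes. Summed microglial markers were at 286 to 324 CPM in PS19 at 4 months and 729 to 917 CPM at 9 months, and their part was not tested. The PS19 difference at 9 months minus that at 4 months contains the contrast that chose the genes and is given without a test: it was 0.38 for Pdlim5 (SE 0.12), 0.38 for Bmpr1b (SE 0.12) and -0.13 for Unc5c (95% interval -0.42 to 0.17).

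**Figure D4:**
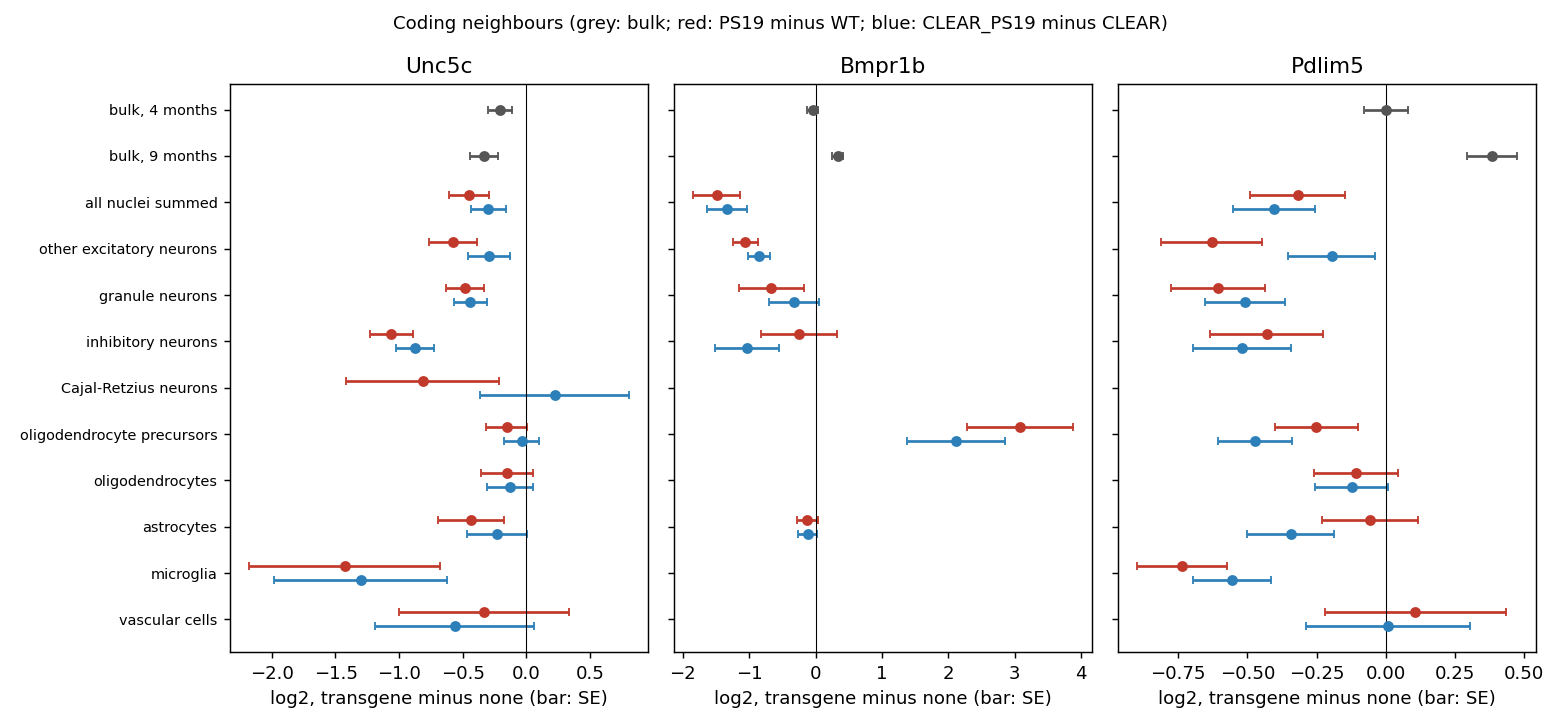
Log2 difference (transgene minus none) of Unc5c, Bmpr1b and Pdlim5 in bulk (grey), in summed nuclei and in each class (red PS19 minus WT, blue CLEAR PS19 minus CLEAR). Bars are 1 SE, and classes where a gene did not pass the count filter are left blank. Unc5c is lowest relative to controls in inhibitory neurons among classes with small errors, at -1.06 and -0.88, and Bmpr1b is near 0 in astrocytes.

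The other genes around the 3 noncoding ones were not chosen by the transgene contrast and were tested in a window of 12 Mb of chromosome 3 that holds all 6 members there. In bulk at 9 months, 12 of 58 were called by edgeR, 11 of them higher, which is 20.7% beside 12.8% of all genes, and their median log2 difference was 0.08. Without PS19 replicate 5 the count was 7, and that over all genes was 1185 in place of 2060. Of the 12, 5 were the adjoining guanylate-binding protein genes described below. In a narrower window of 6 Mb these 5 were the only genes called, of 18 tested. The share of 20.7% thus rests in large part on a single group of related genes. It is not read as a wider rise around the noncoding genes. At 4 months 0 of 58 were called, with 7 at an unadjusted p below 0.05 and 0 by DESeq2, and the median was -0.02. For comparison, 8 of 103 genes in 10 Mb of chromosome 2 around Prnp were called at 9 months and 0 of 103 at 4 months.

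In nuclei, 7 of 98 genes were called on the WT background (4 higher and 3 lower), 7.14% beside 6.1% of all genes, with a median of -0.03. The count depends on single libraries: it was 0 without PS19 replicate 2, WT replicate 1 or WT replicate 2 and 1 without PS19 replicate 1. The count over all genes, 1348, moved in the same way, to 358, 432, 205 and 835 without these libraries, so the share of 6.1% is no fixed background. On the CLEAR background 0 of 98 were called by edgeR, where DESeq2 called 2 and 8 had an unadjusted p below 0.05. With the replicate number within each background as a block, which pairs the nuclei libraries, 16 were called on the WT background and 2 on the CLEAR background. The count over all genes on the WT background was then 2418 in place of 1348. On the CLEAR background that count, 12 without a block, ran from 4 to 223 over the alternatives, so these counts are not read as a rise. Around Prnp, 9 genes were called on the WT background and 0 on the CLEAR background.

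Apart from the members, no gene called by edgeR in these 4 comparisons lay between 4930590L14Rik and Pdlim5. In nuclei the other genes detected there were Pdha2, with 0 UMIs without and 1 with the transgene, and the antisense genes Gm15688 and Gm15689. With so few genes to call, nothing is read from this. The nearest called were 5 guanylate-binding protein genes, interferon-induced GTPases that act in defence against intracellular microbes, which begin 1542 to 1669 kb after the start of 4930590L14Rik. At 9 months in bulk Gbp2 had 3.25 ± 0.816 CPM in WT and 11.7 ± 6.23 in PS19 (log2 1.84, SE 0.33, edgeR adjusted p = 4.2e-04). Gbp2b rose by 2.03 (edgeR adjusted p = 9.7e-04), Gbp3 by 2.18 (adjusted p = 0.0017), Gbp7 by 1.14 (adjusted p = 0.0062) and Gbp5 by 1.34 (adjusted p = 0.0090). Without PS19 replicate 5, Gbp7 had 0.70 (edgeR adjusted p = 0.073) and Gbp5 0.70 (adjusted p = 0.13). In the same bulk libraries all 8 microglial and 5 of 8 astrocyte markers were called higher, and 0 of either at 4 months. Their part in the rise of the Gbp genes was not tested. Gbp3 also rose in nuclei on the WT background, from 0.231 ± 0.0909 to 0.892 ± 0.581 CPM (log2 1.89, SE 0.49, edgeR adjusted p = 0.038), a call lost without any one of PS19 1, PS19 2, WT 1 or WT 2 (edgeR adjusted p 0.051 to 0.20).

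Farther out in bulk at 9 months, Ddah1, which breaks down asymmetric dimethylarginine, rose from 89.7 ± 8.96 to 130 ± 5.80 CPM (log2 0.54, SE 0.07, edgeR adjusted p = 1.5e-05). In nuclei it had the opposite sign and was not called, with -0.44 (edgeR adjusted p = 0.46) on the WT background and -0.47 (adjusted p = 0.83) on the CLEAR background. Manba, the lysosomal beta-mannosidase, rose by 0.47 (SE 0.10, edgeR adjusted p = 0.0033), Sh3glb1 by 0.27 (SE 0.06, adjusted p = 0.0027) and Gng5, a G protein gamma subunit, by 0.43 (SE 0.12, adjusted p = 0.024). The call of Gng5 was lost without WT replicate 4 or 5 or PS19 replicate 4 or 5 (edgeR adjusted p 0.053 to 0.095). Ppp3ca, the catalytic subunit of calcineurin, fell by 0.27 (SE 0.06, edgeR adjusted p = 0.0059). In nuclei on the WT background the lysosomal channel gene Mcoln2 rose from 0.0493 ± 0.0194 to 0.316 ± 0.215 CPM (log2 2.58, SE 0.59, edgeR adjusted p = 0.024), and 1110002E22Rik fell by 0.89 (SE 0.22, adjusted p = 0.034). Neither was called without PS19 2, WT 1 or WT 2 (edgeR adjusted p 0.11 to 0.16), and 1110002E22Rik was not called without PS19 1 either (adjusted p = 0.11). In bulk at 9 months 1110002E22Rik had a log2 difference of -0.64 (edgeR adjusted p = 0.080), and Mcoln2 did not pass the count filter. In these bulk libraries all 8 microglial and 5 of 8 astrocyte markers were called higher, and 5 of 7 granule neuron markers lower. In nuclei, microglia were 11.4% of those kept in PS19 and 4.19% in WT, and astrocytes 1.82% and 5.995%. The part of cell types in the values of these genes was not tested.

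**Figure D5:**
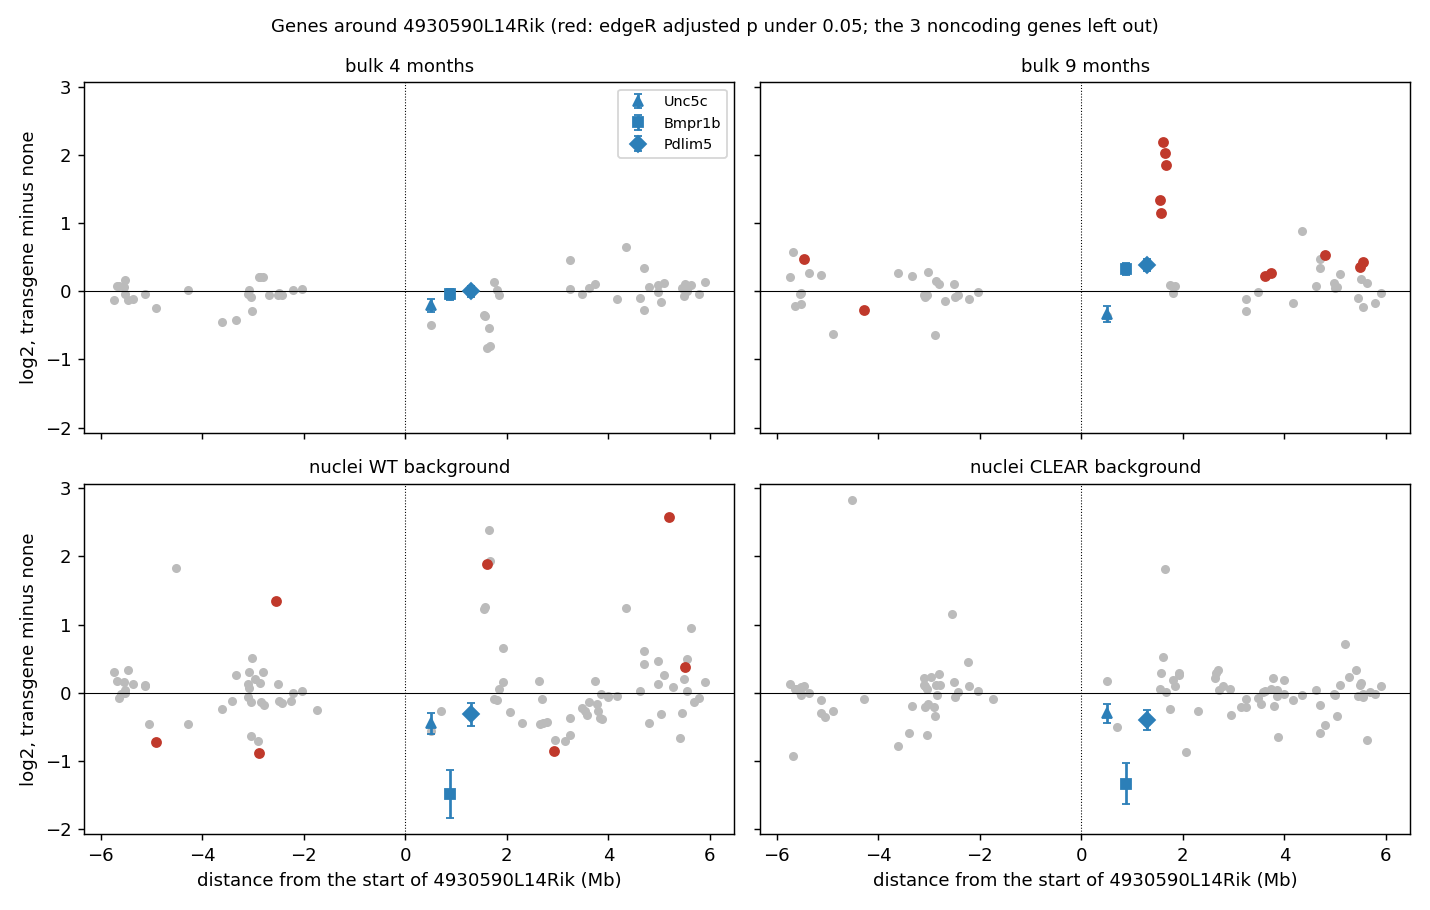
Log2 difference (transgene minus none) of genes on chromosome 3 by distance from the start of 4930590L14Rik, in Mb, in bulk at each age and in nuclei on each background. Blue symbols with SE bars are the 3 coding members, red points other genes called by edgeR and grey points the rest. The called group near 1.6 Mb in bulk at 9 months holds the 5 Gbp genes and is not called at 4 months.

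The pathways of the members were read from lists. The share of all genes called was 12.8% in bulk at 9 months and 6.1% in nuclei on the WT background, and the counts of each list stand beside these. Of 3 tested genes of the Prnp family and its neighbours, Rassf2 rose at 9 months (log2 0.32, SE 0.08, edgeR adjusted p = 0.015), a call lost without PS19 replicate 5 (edgeR adjusted p = 0.092), with a list median of 0.13 beside -0.01 over all genes. None was called at 4 months or in nuclei, though with the replicate block within background Rassf2 was called on the WT background (log2 0.68, edgeR adjusted p = 0.042 in place of 0.061). The medians at 4 months and in nuclei on the WT and CLEAR backgrounds were 0.05, 0.01 and -0.01.

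Of 18 netrin receptors and ligands apart from Unc5c, 3 fell at 9 months in bulk by edgeR, near the 12.8% of all genes called: the ligand gene Ntn5 by 1.15 (adjusted p = 2.2e-04), the receptor gene Unc5a by 0.38 (adjusted p = 0.0018) and the receptor gene Dcc by 0.31 (adjusted p = 0.023). Dcc was not called without WT replicate 5 or PS19 replicate 4 or 5 (edgeR adjusted p 0.073 to 0.11). The list median was -0.14 beside -0.01 over all genes. In the same libraries 5 of 7 granule neuron markers were called lower and 0 higher, with a summed level of 383 to 424 CPM in PS19 and 501 to 623 in WT and none of the 7 at 0, while 0 of 8 markers of other excitatory and 0 of 10 of inhibitory neurons were called. On the WT background in nuclei, 3 fell: Unc5a by 0.54 (edgeR adjusted p = 0.014) and the membrane-anchored netrins Ntng2 by 0.56 (adjusted p = 0.028) and Ntng1 by 0.53 (adjusted p = 0.034), with a median of -0.14. Granule neurons were 14.5 ± 6.16% of kept nuclei in PS19 and 28.7 ± 4.21% in WT (SD, n = 3), and the part of this and of the bulk markers in the list was not tested. Ntng1 and Ntng2 were not called without any one of PS19 1, 2 or 3 or WT 1 or 2 (edgeR adjusted p 0.057 to 0.17) or without the sex covariate (adjusted p 0.086 and 0.15), and Unc5a was not called without PS19 2 (adjusted p = 0.065) or WT 1 (adjusted p = 0.060). With the replicate number within background as a block, 5 fell on the WT background, as Ntn5 (log2 -1.13, edgeR adjusted p = 0.0082 in place of 0.0998) and Dcc (-0.43, adjusted p = 0.024 in place of 0.20) were called too. At 4 months the median was 0.06 and on the CLEAR background -0.03, with 0 called there with the block or without it. Ntn5 and Unc5a also differed between the ages, by -1.01 (edgeR adjusted p = 0.015) and -0.38 (adjusted p = 0.027), where 5.41% of all genes were called.

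Of 27 tested BMP ligands, receptors, inhibitors and targets apart from Bmpr1b, Id3, a transcriptional target of BMP signals, rose at 9 months in bulk from 26.3 ± 3.71 to 43.3 ± 7.32 CPM (log2 0.72, edgeR adjusted p = 2.9e-04). It differed between the ages by 0.78 (edgeR adjusted p = 0.0050). The rise of the astrocyte markers given above for Bmpr1b was in the same libraries, and its part was not tested. In nuclei on the WT background the target Id4 fell by 1.23 (edgeR adjusted p = 0.017) and the inhibitor Smad7 rose by 0.63 (adjusted p = 0.013). Id4 was not called without PS19 1, PS19 2 or WT 2 (edgeR adjusted p 0.066 to 0.078), nor Smad7 without PS19 2, WT 1 or WT 2 (adjusted p 0.050 to 0.074). With the replicate block within background the receptor gene Acvr1 was called as well (-0.38, edgeR adjusted p = 0.013 in place of 0.059). On the CLEAR background no gene of the list was called without the block, and with it Id3 (log2 -1.11, edgeR adjusted p = 0.0098 in place of 0.062) and Id4 (-1.32, adjusted p = 0.015 in place of 0.062) were. The share of astrocytes was lower in the same nuclei libraries, at 1.82% against 5.995% and 1.39% against 4.82%, and its part in the values of Id3 and Id4 was not tested. The list medians were 0.03, -0.03, 0.00 and -0.11 in bulk at 9 and 4 months and in nuclei on the WT and CLEAR backgrounds. Of 8 PDZ and LIM domain genes apart from Pdlim5, Pdlim2 (0.97, edgeR adjusted p = 1.7e-05) and Pdlim4 (0.93, adjusted p = 0.0010) rose at 9 months in bulk, with a median of 0.12. All 8 microglial, 5 of 8 astrocyte and 4 of 8 oligodendrocyte markers were called higher in the same libraries, and their part was not tested. Pdlim2 also differed between the ages, by 0.61 (edgeR adjusted p = 0.044), and no gene of this list was called at 4 months, in nuclei on either background or for the CLEAR effect.

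The genes with the pattern most like Prnp differed between bulk and nuclei, apart from Cldn11, which was among the 5 most like it in both. Over all 21 bulk libraries and 16133 genes, the highest Pearson r of log2 CPM with Prnp was that of 4930590L14Rik (0.99), followed by Mapt, the mouse tau gene (0.94), Casq2 (0.81), Tgfa (0.80) and Cldn11, a tight-junction gene of oligodendrocytes (0.80). These r values include the difference between genotypes. Mapt had 472 ± 27.8 CPM in WT and 652 ± 32.4 in PS19 at 9 months (log2 0.47, SE 0.06), and 468 ± 35.4 and 709 ± 36.1 CPM at 4 months (0.60, SE 0.05). How reads of the human transgene were assigned is not given in the sources used here.

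Over the 14 nuclei libraries and 22083 genes, the most like Prnp were Cldn11 (r = 0.91), Lap3 (0.90), Chac1 (0.89), Asns (0.89) and Gm32171 (0.89). These values too include the difference between genotypes, which chose the members. Oligodendrocytes, of which Cldn11 is a marker, were 30.95 ± 1.54% of kept nuclei in PS19 and 21.8 ± 3.24% in WT (SD), and their part was not tested. Gm32171 had 1.67 and 1.60 CPM in CLEAR PS19 1 and 2 and at most 0.261 CPM in the other 12 libraries, so its r rests on those 2. 4930590L14Rik ranked 30 (0.85), Gm43049 53 (0.83) and Gm32754 190 (0.78). Unc5c (-0.82) and Bmpr1b (-0.81) were near the other end, at ranks 21982 and 21970. In bulk, Unc5c had r = -0.57 (rank 16015), Bmpr1b 0.40 (rank 1093) and Pdlim5 0.34 (rank 1766).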

How the data were processed

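The deposited values are whole counts: UMIs per gene and barcode for 14 nuclei libraries and reads per gene for 21 bulk libraries. Per the labels' protocols, nuclei came from frozen hippocampus and were sequenced from the 3′ end. Per the submitters' processing notes, the authors used Cell Ranger and Seurat for nuclei and cutadapt, STAR, featureCounts and DESeq2 for bulk, with mm10. The file headers give Cell Ranger 5.0.1 and, in 1 bulk table, featureCounts 2.0.0 counting exons without strand. The counts were used as deposited, and counting of introns and of human transgene reads is not given in the sources used here.

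Barcodes with at least 300 genes and under 5% mitochondrial UMIs were kept, and 12562 called doublets were removed, which left 132322 of 144991. Nuclei were clustered (scanpy 1.11.5, 2000 variable genes, 30 components, 20 neighbours, Leiden resolution 1) and clusters named from fixed markers, with 7908 nuclei unnamed. Because the classes are rebuilt, they may differ from the authors' own. UMIs were summed per library and class, and a class was fitted where every library had at least 20 nuclei.

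edgeR 4.0.16 (R 4.3.3, quasi-likelihood, TMM, its low count filter, Benjamini-Hochberg adjustment, threshold 0.05) was fitted over all genes, with sex as a covariate in nuclei. Agreement used log2 CPM with a prior count of 2, and exact permutation or 100000 permutations, 2-sided. Intervals are 95%: those of pooled ratios cover counting error only, and those of log2 differences come from the fit's SE and include the spread between libraries. A group at 0 was set to 3 counts over the group. To gauge free RNA, levels in each class were set beside Slc17a7 and the other markers of other excitatory neurons, a comparison chosen after seeing the data. The members and the gene lists (Prnp family, netrin, BMP, and PDZ and LIM genes) were chosen with earlier results of these data known. Named genes were the members, the called genes in 12 Mb of chromosome 3 around them (at most the 12 with the smallest adjusted p), called list genes and the 5 genes most like Prnp in bulk and in nuclei.

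Same-numbered nuclei libraries deviated together within a background (r 0.35 to 0.45 for WT and PS19, 0.46 to 0.60 for CLEAR and CLEAR PS19). Bulk numbers did not (r 0.015 to 0.082 at 9 months, with 0 of 4 pairs over 0.1, and -0.29 to 0.32 at 4 months, with 4 of 6). In nuclei the own number gave the best match in 3 of 3 pairs of WT and PS19 and 3 of 4 of CLEAR and CLEAR PS19. Those libraries also share sex and, in granule neurons, library set, so a pairing by number cannot be told apart from these. The main fits did not use it, and a block on the number within a background was an alternative. Alternatives were DESeq2 1.42.0, no low count filter, raw library totals, no sex covariate, all barcodes, coarser clusters, other windows, replicate blocks, each library left out and, added after seeing the data, library set blocks, blocks within a background and agreement without females. All deposited sample columns were used.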

Additional observations from a re-analysis of the deposited data

Results flagged for a closer look

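In 5 of 56 groups of 4 to 10 libraries, 1 library lay far from the others by Dixon's criterion, where chance gives about 5%. Among bulk WT libraries, replicate 5 of 4 months had 0.0636 CPM of 4930590L14Rik and replicate 3 of 9 months 0.0602 CPM, each from 1 read, with all others of their groups at 0. Replicate 4 of the WT libraries of 9 months had 0.163 CPM of Gm32754 with the others at 0. Replicate 5 of the same group had 101.4 CPM of Unc5c, with the others at 80.1 to 84.3. In nuclei, CLEAR PS19 replicate 3 had 26.4 CPM of Pdlim5, with the others at 22.9 to 23.5.

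Of 12 named genes around 4930590L14Rik, 11 could be tested for a PS19 difference that changed between 4 and 9 months, and edgeR called 8, in a comparison where 5.41% of all genes were called. All 8 were named because they were called at 9 months in bulk, a contrast that this difference contains, so the values are a description and the count supports nothing. The 5 guanylate-binding protein genes had the largest log2 values of the 8, at 9 months minus 4 months: Gbp3 3.01, Gbp2 2.65, Gbp2b 2.57, Gbp5 1.68 and Gbp7 1.51. The lysosomal gene Manba had 0.61, Ddah1 0.47 and Ppp3ca -0.29.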

How the results depend on the processing

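Counts of called members, neighbours and list genes moved by over 1.5 times in 43 recomputations, and counts over all genes moved too, from 1348 on the WT background to 205 to 1488 with a library left out and up to 2928 with library sets. On the CLEAR background the count over all genes, 12, ran from 4 to 223. Neighbours called on the WT background (7) were 16 with DESeq2, 15 with the replicate block, 16 with the block within background, 18 with library sets, 3 without the sex covariate, 4 in a window of 6 Mb and 0 to 9 with a library left out. On the CLEAR background (0) they were 2 with DESeq2, all barcodes, the block within background or library sets, and 1 with the replicate block or no filter. In bulk at 9 months (12) they were 5 in the window of 6 Mb and 7 to 13 with a library left out. List genes called on the WT background (5) were 9 with DESeq2, 13 with the replicate block, 9 with the block within background, 14 with library sets, 3 without sex and 0 to 6 with a library left out. On the CLEAR background (0) they were 3 with DESeq2, 2 with no filter, all barcodes, either replicate block or library sets, and 0 to 2 with a library left out. Members past the threshold for the age difference, which contains the contrast that chose them and is a description, were 0, and 2 with DESeq2, 1 with the replicate block and 0 to 2 with a library left out. Members called for the CLEAR effect (0) were 3 with the replicate block (Prnp 0.63, Unc5c -0.32, Pdlim5 -0.47), whose numbers do not pair PS19 with CLEAR PS19. The cause of these moves was not tested.

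Some signs reversed. With library sets, the CLEAR effect was -0.0973 for Gm43049, -0.0976 for Gm32754, 0.136 for Unc5c and 0.0452 for Bmpr1b. With the replicate block, female minus male was 0.266 for Prnp, -0.486 for Unc5c and -0.648 for Bmpr1b. Agreement reversed without the 2 farthest libraries for 4930590L14Rik (-0.64), Bmpr1b (0.376) and Pdlim5 (0.651), and without females for Gm43049 (0.602) and Gm32754 (0.631). With a library left out, the age difference ran from -0.0449 to 0.022 for Prnp and -1.61 to 0.913 for 4930590L14Rik, and 9 minus 4 months in PS19 from -0.0356 to 0.0313 for Prnp and -0.0391 to 0.0988 for Unc5c. The CLEAR effect on Gm43049 ran from -0.0447 to 0.271, the sex term of Bmpr1b from -0.0484 to 0.252, Unc5c in microglia on the WT background from -1.91 to 0.0538, and bulk agreement from -0.359 to 0.178 for Gm32754 and -0.207 to 0.291 for Pdlim5. Differences of Gm43049 in bulk, with 5 reads over all PS19 libraries, and of 4930590L14Rik in the rarer classes, where most libraries had 0 counts, were not detectable.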
